A study of Mus musculus with 6 samples.

Results

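The genes described here encode the subunits of integrins and laminins. They were the genes on the array whose symbol is that of an integrin alpha or beta chain or of a laminin alpha, beta or gamma chain, each read from the probe set with the highest mean over all 6 samples. This gave 34 genes of 18194 measured, 16 integrin alpha chains, 8 integrin beta chains and 10 laminin chains, and 73 probe sets in all. Some chains of both families were not analysed here. All 34 were kept, with no filter on low values.

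Integrins are receptors made of 1 alpha and 1 beta chain that span the cell membrane, bind matrix proteins outside the cell and couple them to the actin skeleton through adaptor proteins inside it. The pairing of the chains sets the ligand, so that alpha5 with beta1 binds fibronectin, alpha2 with beta1 binds collagen, and alphaV with beta3 or beta5 binds vitronectin and other proteins with an RGD motif. Laminins are trimers of an alpha, a beta and a gamma chain and form the network of basement membranes, the sheets on which epithelial cells rest. In the ovary, cumulus cells surround the oocyte within the follicle, and after the ovulatory stimulus they move apart in a matrix rich in hyaluronan.

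The samples were cumulus cells of wild-type female mice, taken after human chorionic gonadotropin (hCG), the ovulatory stimulus, or without it. The mice were 21 days old when given 5 IU of equine chorionic gonadotropin (eCG), which drives follicle growth, and 46 h later they spent 6 h under 5 IU of hCG (hCG-6h, 3 samples) or received none (hCG-0h, 3 samples). Each sample came from 50 cumulus-oocyte complexes in a medium with milrinone, and was put on 1 single-colour array. The labels give the age as 23 days for all samples and add the hours of hCG for the hCG-6h group. The descriptions of hCG-6h samples 2 and 3 speak of 7 h and 8 h, against 6 h in their titles. Nothing in the labels says that the samples came from separate animals. The p-values set the difference between groups against the spread of samples within groups, which may be technical. No group was kept for the same hours without hCG, so hCG and elapsed time cannot be told apart.

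The arrays had median log2 values of 6.43 to 6.46, and the groups lay apart across the whole table, with 21.3% of the 18194 genes called (limma, adjusted p under 0.05), 10.8% higher and 10.5% lower at hCG-6h. Most granulosa markers were bright, the brightest being Inha, the inhibin alpha chain, with a mean log2 level of 13.39 at hCG-6h and 13.46 at hCG-0h. Of 9 measured markers of cumulus and granulosa cells 5 were lower at hCG-6h and none higher. The summed level of the 9, as a log2 value, was 14.67 to 14.78 at hCG-6h and 15.15 to 15.22 at hCG-0h. The log2 changes of the 5 ran from -3.70 for Slc38a3 to -0.41 for Fst, with -3.22 for Fshr. Slc38a3 averaged 5.59 at hCG-6h, in the dim range (log2 under 6.08). Markers of oocytes, endothelium and platelets were mostly dim in both groups (8 of 11, 7 of 9 and 5 of 6). Fewer were dim in both among leukocyte (6 of 12), theca and stroma (3 of 9) and surface epithelium markers (2 of 6). The extraction protocol speaks of whole complexes. None of the 11 measured oocyte markers was called, and their summed level was 9.23 to 9.38 at hCG-6h and 8.89 to 9.36 at hCG-0h. Among them only Dppa3, dim in neither group, lay wholly higher at hCG-6h, with a log2 change of 0.96 (limma adjusted p = 0.0851). No endothelial marker of 9 was called (summed level 9.53 to 9.85 at hCG-6h and 9.25 to 9.65 at hCG-0h). Among them Cdh5 came close, with a log2 change of 1.63 (limma adjusted p = 0.053). Kdr, dim in both groups, changed by 0.67 (adjusted p = 0.117). In both genes the groups did not overlap, as in 37.9% of all genes, whereas they did in the other endothelial markers. No platelet marker of 6 was called (7.86 to 7.99 at hCG-6h and 7.83 to 8.03 at hCG-0h), and only Treml1, dim in both groups, lay wholly lower (log2 change -0.22). No marker of surface epithelium, of 6 measured, was called either (8.65 to 8.84 at hCG-6h and 8.74 to 8.82 at hCG-0h). Of these, Krt19 and Msln lay wholly higher at hCG-6h, with log2 changes of 0.43 and 0.27, and Krt7 wholly lower, with -0.17. Of 9 theca and stroma markers only Ptch1, the Hedgehog receptor, was called, with a log2 change of -0.92 (summed level 9.96 to 10.21 at hCG-6h and 10.55 to 10.74 at hCG-0h). In bulk samples fewer cells of a type and less RNA per cell cannot be told apart.

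A few integrin chains were much higher at hCG-6h than at hCG-0h, whereas most integrin and laminin subunits did not pass the test. Of the 34 genes, 7 were higher, 1 was lower and 26 did not pass, so that 23.5% were called beside 21.3% of all genes. The 7 that were higher are 20.6% of the subunits, beside 10.8% of all genes. They were the integrin chains Itga5, Itga2, Itgb3, Itgb5, Itgax and Itgb1 and the laminin chain Lamb1, and the one that was lower was the integrin chain Itgb4. Of these, Itga5, Itga2 and Itgb3 passed a change of 2-fold, as 9.99% of all genes did. The median log2 change over the 34 genes was 0.08, beside 0.01 over all genes, and changes ran from -0.66 to 4.15. The values of one group lay wholly above or below those of the other in 11 of the 34 genes, 10 of them higher at hCG-6h, beside 37.9% of all genes in either direction. Only in hCG-6h sample 1 do the description and title agree on the hours. With that sample alone, the log2 changes were 4.09 for Itga5, 2.60 for Itga2, 2.41 for Itgb3 and 0.87 for Itgb5. For the other called integrin chains they were 0.83 for Itgax, 0.61 for Itgb1 and -0.70 for Itgb4.

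**Figure D1:**
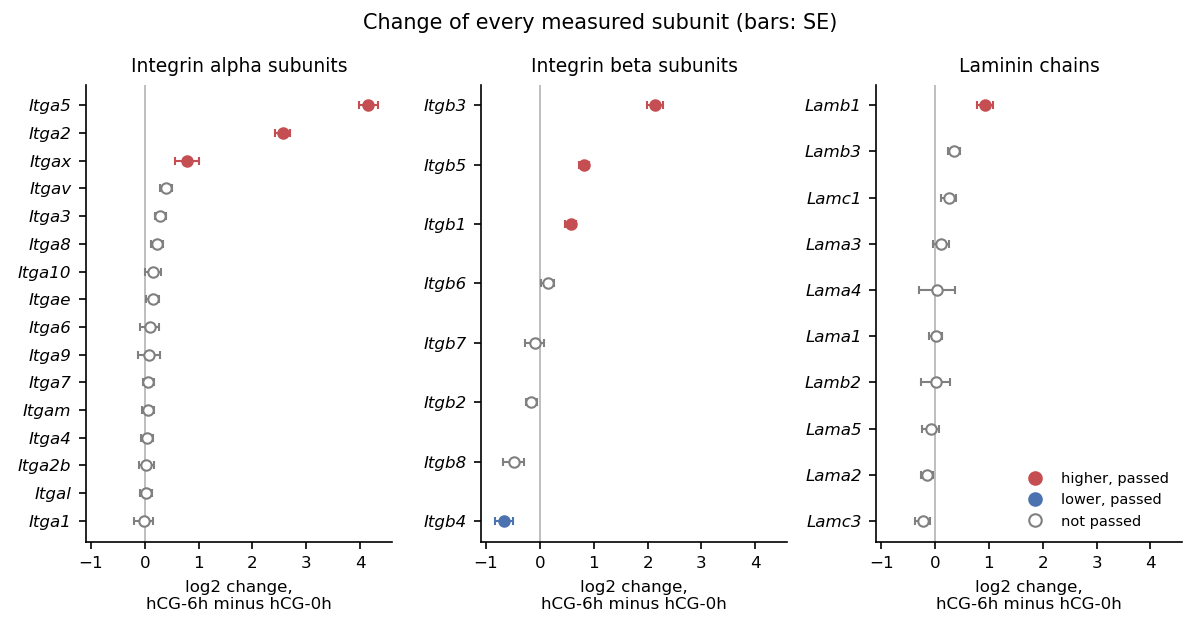
Log2 change (hCG-6h minus hCG-0h, with limma's SE as bars) of each of the 34 subunits, by family. Filled points passed at an adjusted p under 0.05, in red where higher and in blue where lower at hCG-6h; the changes of Itga5, Itga2 and Itgb3 (4.15, 2.56 and 2.14) stand apart from all others, which lie between -0.66 and 0.93.

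The largest change was that of Itga5, the alpha chain of the fibronectin receptor alpha5 beta1. Its log2 values were 11.50, 11.59 and 11.58 in hCG-6h samples 1, 2 and 3, against 7.04, 7.46 and 7.72 in hCG-0h samples 1, 2 and 3 (probe set 1423267_s_at). The hCG-6h samples lay close together, the hCG-0h samples were more spread, and the gap between the groups was 3.78. The log2 change was 4.15 ± 0.18 (SE, n = 3 each), 17.8-fold higher at hCG-6h (limma adjusted p = 3e-05), and it ranked 51 among the rises of all genes. Of the other probe sets of Itga5, 1423268_at showed a log2 change of 4.06 and 1458996_at one of 1.06, both passing, whereas 1457561_at, with 0.62, did not pass (adjusted p = 0.0899). Probe sets 1458996_at and 1457561_at were in the dim range in both groups, and 1423268_at in neither.

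Itga2, the alpha chain of the collagen and laminin receptor alpha2 beta1, was also far higher. It stood at 12.77, 12.72 and 12.70 in hCG-6h samples 1 to 3, against 10.27, 10.33 and 9.90 in hCG-0h samples 1 to 3 (probe set 1450501_at, its only one). The groups were 2.37 apart, with hCG-0h sample 3 the lowest. This was a log2 change of 2.56 ± 0.14 (SE, n = 3 each), or 5.91-fold higher (limma adjusted p = 7.12e-05).

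Among the beta chains the largest change was that of Itgb3, the chain that pairs with alphaV, and in platelets with alphaIIb. Its log2 values were 10.55, 10.17 and 10.13 in hCG-6h samples 1 to 3, against 8.17, 8.00 and 8.25 in hCG-0h samples 1 to 3 (probe set 1455257_at). All hCG-6h samples lay at least 1.88 above all hCG-0h samples, with hCG-6h sample 1 the highest. The change was 2.14 ± 0.15 on the log2 scale (SE, n = 3 each), 4.42-fold higher (limma adjusted p = 0.00017). A second probe set of Itgb3, 1421511_at, had values of 8.20, 7.69 and 7.31 in the hCG-6h samples, against 7.08, 5.56 and 7.14 in the hCG-0h samples, and did not pass (log2 change 1.14, adjusted p = 0.145). The platelet partner chain, Itga2b, did not pass, with log2 values of 6.92, 6.93 and 6.67 at hCG-6h and 6.91, 6.89 and 6.62 at hCG-0h.

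Itgb5, another partner of alphaV and a vitronectin receptor chain, was higher by less than 2-fold in its main probe set and with little spread. It stood at 11.95, 11.86 and 11.91 in hCG-6h samples 1 to 3, against 11.14, 11.02 and 11.09 in hCG-0h samples 1 to 3 (probe set 1456133_x_at). The samples of each group lay within 0.12 of each other and the groups were 0.72 apart. Its log2 change was 0.82 ± 0.09 (SE, n = 3 each), 1.77-fold higher (limma adjusted p = 0.00139), and all 4 probe sets of the gene passed, with log2 changes of at least 0.82.

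Itgb1, the beta chain that pairs with most alpha chains of matrix receptors, was modestly higher. Its log2 values were 11.01, 10.96 and 10.93 in hCG-6h samples 1 to 3, against 10.28, 10.51 and 10.40 in hCG-0h samples 1 to 3 (probe set 1426918_at). The groups did not overlap. The log2 change was 0.57 ± 0.10 (SE, n = 3 each), 1.48-fold higher (limma adjusted p = 0.00954). Of its 6 probe sets 2 passed, the other of them with a log2 change of 0.45, and the remaining 4 did not, with log2 changes of -0.15 to 0.47. Those 4 were in the dim range, 1427771_x_at at hCG-0h only and 1426919_at, 1426920_x_at and 1438119_at in both groups.

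The alphaV chain itself, Itgav, missed the threshold. It had log2 values of 12.41, 12.39 and 12.34 in hCG-6h samples 1 to 3, against 11.81, 12.07 and 12.08 in hCG-0h samples 1 to 3. The groups were 0.26 apart. Its change was 0.39 ± 0.11 on the log2 scale (SE, n = 3 each; limma adjusted p = 0.05068), and it passed with a trend and robust variance, with a repeated quantile normalisation, with centring on array medians and without dim genes (adjusted p = 0.00645 to 0.0492). It did not pass with array weights (0.0522), with the sample number as a block (0.107), with hCG-6h sample 1 alone (0.27) or in the 6 fits that left out a sample (0.0768 to 0.129). With the mean of its probe sets the log2 change was 0.07 (adjusted p = 0.783). Of its 5 probe sets, 1432296_a_at passed, with a log2 change of 0.67, and 2 others had changes of -0.60 and -0.52 without passing.

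**Figure D2:**
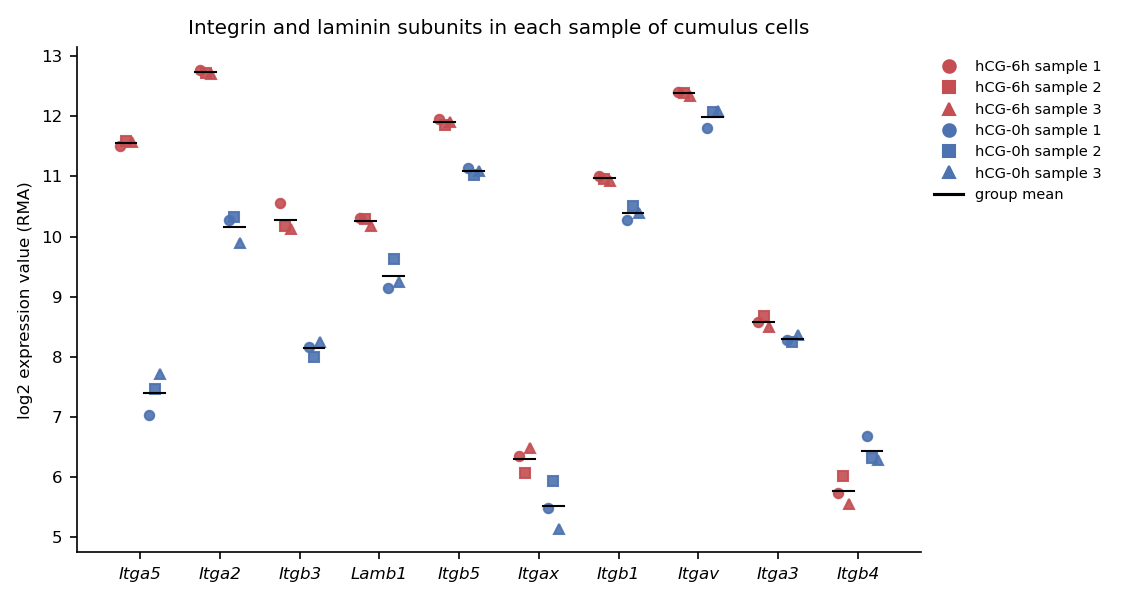
Log2 expression value of 10 subunits in each sample, hCG-6h in red to the left of hCG-0h in blue, with black bars for group means. The gap between the groups is 3.78 for Itga5, 2.37 for Itga2 and 1.88 for Itgb3, and between 0.13 and 0.72 for the other 7.

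Itgax and Itgb4 passed narrowly. Itgax, the alphaX chain (CD11c) known from dendritic cells and macrophages, where it pairs with beta2, had log2 values of 6.35, 6.07 and 6.49 in hCG-6h samples 1 to 3, against 5.49, 5.94 and 5.13 in hCG-0h samples 1 to 3. The groups were only 0.13 apart and the hCG-0h mean lay among the dim range, the lowest 1 in 3 of all genes with a log2 level under 6.08, where the background correction compresses changes. Its log2 change was 0.78 ± 0.22 (SE, n = 3 each; limma adjusted p = 0.04884), and it passed in 1 of the 6 fits that each left out a sample, the one without hCG-0h sample 2. Without each of the other 5 samples its adjusted p was 0.0608 to 0.14. The 6 other leukocyte integrin chains measured, Itgal, Itgam, Itgae, Itga4, Itgb2 and Itgb7, did not pass, with log2 changes of -0.16 to 0.15. Of 12 measured leukocyte markers none was called higher and only Fcer1g, an Fc receptor chain, was called lower, by 0.88 on the log2 scale. Cd3e, S100a8 and Coro1a, all dim in both groups, did not pass but lay wholly higher at hCG-6h. Their log2 changes were 0.93, 0.64 and 0.35. With Fcer1g, the groups did not overlap in 4 of the 12 markers, beside 37.9% of all genes. The summed level of the 12 markers was 9.69 to 9.80 at hCG-6h and 9.73 to 9.82 at hCG-0h. Ptprc, the pan-leukocyte marker CD45, averaged 5.80 at hCG-6h and 5.43 at hCG-0h, in the dim range in both groups.

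Itgb4, the chain that pairs with alpha6 in the laminin receptor of hemidesmosomes, was the only subunit that was lower. It stood at 5.73, 6.02 and 5.56 in hCG-6h samples 1 to 3, against 6.69, 6.32 and 6.29 in hCG-0h samples 1 to 3. The groups were 0.27 apart, with the hCG-6h mean in the dim range. The log2 change was -0.66 ± 0.17 (SE, n = 3 each; limma adjusted p = 0.03325). It passed in 1 of the 6 fits that left out a sample, the one without hCG-6h sample 2, and with each of the other 5 left out its adjusted p was 0.0566 to 0.0984. Its partner Itga6 had log2 values of 7.79, 7.34 and 7.38 at hCG-6h and of 7.53, 7.56 and 7.15 at hCG-0h, so the groups overlapped (log2 change 0.09 ± 0.17, SE, limma adjusted p = 0.779).

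Itga3, the alpha chain of a laminin receptor with beta1, gave different answers by probe set. The probe set with the highest mean, 1421997_s_at, had log2 values of 8.58, 8.68 and 8.50 in the hCG-6h samples, against 8.28, 8.24 and 8.37 in the hCG-0h samples, and did not pass (log2 change 0.29 ± 0.10, SE, n = 3 each; limma adjusted p = 0.0946). Probe set 1460305_at had 8.67, 8.93 and 8.79 in the hCG-6h samples, against 7.87, 6.75 and 6.51 in the hCG-0h samples, a log2 change of 1.75 that passed (adjusted p = 0.0148 over all probe sets). Probe set 1455158_at also passed, with a log2 change of 1.38 (adjusted p = 0.0133). In all 3 probe sets the groups did not overlap.

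The remaining 10 alpha chains did not pass, with log2 changes of -0.02 to 0.23. Among them Itga1, a receptor chain for basement membrane collagen, and Itga9, a receptor chain for tenascin-C, lay above the dim range. Itga9 stood at 9.15, 9.33 and 9.71 in hCG-6h samples 1 to 3, against 8.99, 9.53 and 9.44 in hCG-0h samples 1 to 3, with the groups overlapping. Itgb6 and Itgb8, partners of alphaV that activate latent TGF-beta, were dim in both groups, with log2 changes of 0.14 and -0.49 that did not pass. Without hCG-0h sample 2 the change of Itgb8 was -0.69 and passed (adjusted p = 0.0226). In all, 8 of the 34 subunits were dim in both groups, and none of those was called, beside 3.3% of all genes that were dim in both. Of the 22 subunits dim in neither group 6 were called, beside 27.8% of such genes overall.

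Of the 10 laminin chains, 1 was higher at hCG-6h and 9 did not pass. Lamb1, the beta chain of the laminins with beta1, had log2 values of 10.31, 10.30 and 10.18 in hCG-6h samples 1 to 3, against 9.15, 9.62 and 9.24 in hCG-0h samples 1 to 3 (probe set 1424114_s_at). The groups were 0.56 apart, with the hCG-0h samples more spread. The log2 change was 0.93 ± 0.15 (SE, n = 3 each), 1.90-fold higher (limma adjusted p = 0.0052). Of its 4 probe sets 3 passed, with log2 changes of 0.87 to 1.11, and 1446180_at, dim in both groups, did not (0.29).

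Lama1 and Lamc1, the alpha1 and gamma1 chains that form a basement membrane laminin with Lamb1, did not pass in the probe sets used. Lama1 stood at 10.26, 10.32 and 10.53 in hCG-6h samples 1 to 3, against 10.26, 10.34 and 10.48 in hCG-0h samples 1 to 3, and the groups overlapped almost fully (log2 change 0.01 ± 0.12, SE, limma adjusted p = 0.969). Lamc1 had 10.05, 9.84 and 10.14 in the hCG-6h samples, against 9.95, 9.71 and 9.62 in the hCG-0h samples, again with overlap (log2 change 0.25 ± 0.14, SE, limma adjusted p = 0.26). Its second probe set, 1423886_at, had 10.14, 10.01 and 10.21 in the hCG-6h samples, against 9.44, 9.62 and 9.72 in the hCG-0h samples, and passed with a log2 change of 0.53 (adjusted p = 0.0286).

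The other laminin chains lay between -0.23 and 0.35 on the log2 scale of change and did not pass. The largest of these changes was that of Lamb3, a beta chain of epithelial basement membranes, with log2 values of 6.58, 6.49 and 6.35 in hCG-6h samples 1 to 3, against 6.02, 6.20 and 6.16 in hCG-0h samples 1 to 3. These groups did not overlap, and the adjusted p was 0.0714 (limma). Lama5, the alpha chain of the laminins of many adult basement membranes, had log2 values of 7.12, 7.52 and 7.02 in hCG-6h samples 1 to 3, against 7.41, 7.27 and 7.23 in hCG-0h samples 1 to 3, with overlap.

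**Figure D3:**
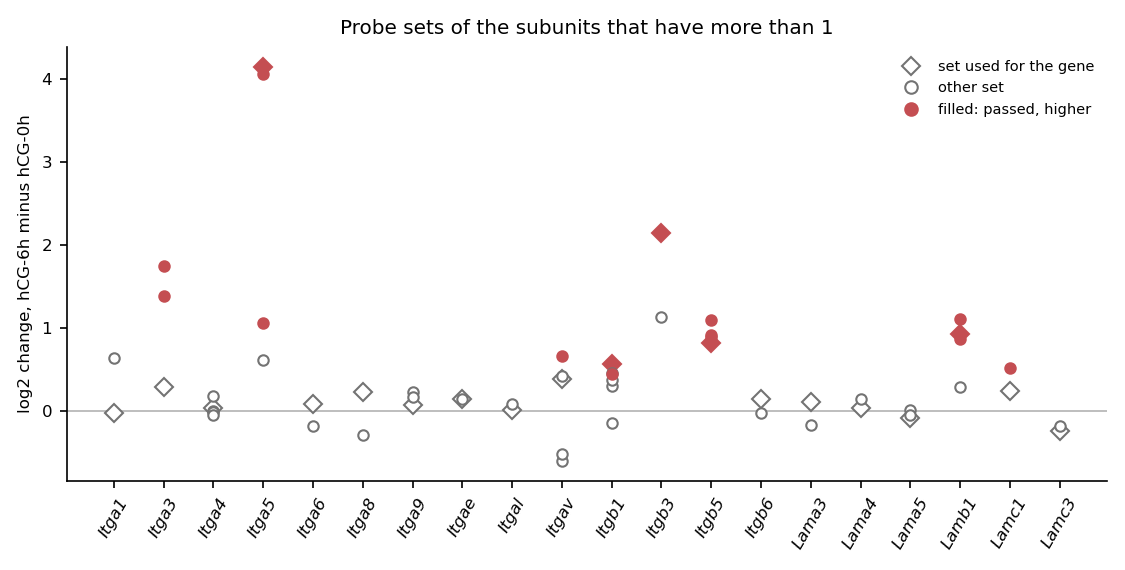
Log2 change (hCG-6h minus hCG-0h) of every probe set of the 20 subunits with more than 1, with diamonds for the set used for the gene, circles for the others, and filled symbols where the change passed in a fit of all probe sets. All 4 sets of Itgb5 passed, against 3 of 4 for Itga5 and Lamb1, 2 of 6 for Itgb1, 2 of 3 for Itga3 without the set used, 1 of 5 for Itgav, and 1 of 2 for Itgb3 and Lamc1. The sets of Itga5, Lamb1 and Itgb1 that did not pass averaged in the dim range in 1 or both groups.

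Over probe sets rather than genes, 18 of the 73 were higher and 1 was lower at hCG-6h, each tested in a fit of all probe sets with 1 symbol, in which 9.28% of 34958 were higher and 9.43% lower. Probe sets of a gene share its transcripts and are not independent. Of the 34 subunits 14 had a single probe set, among them Itga2, Itgax and Itgb4. In that fit, adjusted over more tests, the probe set of Itgax did not pass (adjusted p = 0.0574).

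In the probe sets used, the measured changes of the chains of 1 receptor or trimer differed, although the test of these differences could not pass 0.05. The log2 change of Itga5 was larger than that of its partner Itgb1 by 3.58 ± 0.17 (SE, n = 3 each), and that of Itga2 was larger than that of Itgb1 by 1.99 ± 0.14. The change of Itgav, by contrast, was smaller than that of Itgb3 (difference -1.75 ± 0.17) and that of Itgb5 (-0.43 ± 0.12). In the laminin trimer the changes of Lama1 and Lamc1 were smaller than that of Lamb1, with differences of -0.92 ± 0.20 and -0.68 ± 0.24. Between Itga6 and Itgb4 the difference was 0.75 ± 0.25. In each of these 7 pairs the within-array differences of the hCG-6h samples did not overlap those of the hCG-0h samples. In 3 further pairs with Itgb1, the differences were -0.28 ± 0.10 for Itga3, -0.48 ± 0.19 for Itga6 and -0.18 ± 0.05 for Itgav, with overlap for Itga6 (exact permutation p = 0.2). The signs for Itga3 and Itgav rest on the probe set used, since other sets changed by 1.38 and 1.75 for Itga3 and by 0.67 for Itgav, each more than the 0.57 of Itgb1. The sizes of other differences also rest on the probe set. A second set of Itgb3 changed by 1.14 and a second set of Lamc1 by 0.53, and the 0.67 of Itgav lay near the 0.82 of Itgb5. The two-sided exact permutation p was 0.1 for each of the other pairs, the smallest that 3 against 3 samples allow, and 0.111 after adjustment over 10 pairs, so the test could not pass 0.05.

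The sequences around the transcript starts of 4 of the subunits that were higher together are shown because the genes changed in the same direction. They are RefSeq sequences of the GRCm38.p6 build, from 250 bases before to 50 after the transcript start used for each window, 5′ to 3′ on the strand of the gene, with every GC box (GGGCGG on either strand) in capitals. For Lamb1 that start lies 147 bases inside the outermost start of the gene in RefSeq. The windows of Itgb1 and Itgax were also at hand and were left out, although both genes changed in the same direction. All 4 windows included hold a GC box, whereas that of Itgax holds none, so the 4 do not stand for every subunit that was higher. The only GC box of Itga2 lies after the transcript start, not upstream of it.
Itga5 (chr15:103366742-103367041, minus strand): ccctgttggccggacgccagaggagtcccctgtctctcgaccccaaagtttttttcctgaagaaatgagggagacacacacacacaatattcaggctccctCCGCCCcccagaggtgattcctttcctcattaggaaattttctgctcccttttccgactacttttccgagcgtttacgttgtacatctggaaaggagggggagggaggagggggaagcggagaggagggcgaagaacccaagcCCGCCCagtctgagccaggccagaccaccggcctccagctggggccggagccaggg
Itga2 (chr13:114932051-114932350, minus strand): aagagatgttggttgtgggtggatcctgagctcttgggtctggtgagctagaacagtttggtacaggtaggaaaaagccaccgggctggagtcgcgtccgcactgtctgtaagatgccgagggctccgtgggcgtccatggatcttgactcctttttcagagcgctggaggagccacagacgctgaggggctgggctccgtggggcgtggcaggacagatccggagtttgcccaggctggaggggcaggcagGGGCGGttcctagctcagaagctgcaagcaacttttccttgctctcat
Itgb5 (chr16:33829415-33829714, plus strand): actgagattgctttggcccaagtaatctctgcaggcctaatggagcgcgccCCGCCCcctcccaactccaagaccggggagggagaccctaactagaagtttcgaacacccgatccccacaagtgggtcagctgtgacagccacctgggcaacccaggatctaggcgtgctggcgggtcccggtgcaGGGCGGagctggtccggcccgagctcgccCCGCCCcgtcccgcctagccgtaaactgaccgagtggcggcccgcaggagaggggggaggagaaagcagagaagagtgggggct
Lamb1 (chr12:31265043-31265342, plus strand): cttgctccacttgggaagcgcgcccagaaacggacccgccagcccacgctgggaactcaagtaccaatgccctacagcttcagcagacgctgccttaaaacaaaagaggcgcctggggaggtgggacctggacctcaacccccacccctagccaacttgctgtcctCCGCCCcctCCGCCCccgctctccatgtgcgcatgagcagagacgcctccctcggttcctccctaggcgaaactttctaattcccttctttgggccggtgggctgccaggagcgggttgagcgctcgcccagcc
RefSeq entries of this kind were at hand for 22 of the 34 subunits and for 6 of the 8 that were called. Of those 6, 5 held a GC box, all but Itgax, as did 6 of the 16 other subunits and 35.7% of 32851 promoter windows of the same length. G and C made up 50.0% of the window of Itgax and 58.7% to 67.3% of the other 5, beside a median of 52.7% over all windows. The cyclic AMP response element TGACGTCA, found in 1.8% of all windows, was in none of the 6, and its half-site TGACG, found in 20.8%, was only in that of Itgb1. The AP-1 site TGANTCA, found in 7.8% of all windows, was only in that of Itgax, and TATAAA, found in 13.6%, was in none of the 6. Both strands were searched, and the full element contains the half-site. These are matches of letters within the windows, and no binding was measured.

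The ligands of these receptors and the other basement membrane proteins also moved mainly up where they changed. Of 37 listed genes 32 were measured, and 10 were higher, 2 were lower and 20 did not pass, so that 37.5% were called beside 21.3% of all genes. The median log2 change of the list was 0.14, beside 0.01 over all genes. Fn1, fibronectin, the ligand of alpha5 beta1, had log2 values of 9.27, 9.39 and 9.32 in hCG-6h samples 1 to 3, against 7.51, 7.46 and 6.84 in hCG-0h samples 1 to 3. The groups lay far apart, with hCG-0h sample 3 the lowest, and the log2 change was 2.06 ± 0.19 (SE, n = 3 each; limma adjusted p = 0.000539).

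The collagen chains of basement membrane, Col4a1 and Col4a2, had the largest changes of the list. Col4a1 had log2 values of 11.17, 11.09 and 11.06 in hCG-6h samples 1 to 3, against 6.43, 5.23 and 5.07 in hCG-0h samples 1 to 3. The log2 change of Col4a2 was 4.26 ± 0.26 (SE, limma adjusted p = 0.000117). Both genes averaged in the dim range at hCG-0h, so these changes are approximate. Sdc1, a syndecan that binds matrix with its heparan sulfate chains, was higher by 2.91 on the log2 scale, Tnc, tenascin-C, by 2.54, and Col18a1, a collagen of basement membranes, by 2.31. Dag1, the laminin receptor dystroglycan, had 11.94, 11.93 and 11.90 at hCG-6h and 11.32, 11.01 and 11.08 at hCG-0h, without overlap (log2 change 0.79, limma adjusted p = 0.00387).

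Not all ligands followed. Vtn, vitronectin, was dim in both groups and did not pass (log2 change -0.13), and Hspg2 and Agrn, the basement membrane proteoglycans perlecan and agrin, did not pass (0.08 and 0.03). Col4a5, another collagen IV chain, and Mfge8, an RGD protein bound by alphaV integrins, were lower, with log2 changes of -1.07 and -0.52 (both outside the rule for named genes and chosen after their values were seen). Without hCG-6h sample 2 or hCG-0h sample 2 only 1 gene of the list was lower.

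Adaptors and regulators of integrins changed often and in both directions. Of 39 listed genes 35 were measured, and 10 were higher, 8 were lower and 17 did not pass, so that 51.4% were called beside 21.3% of all genes. The median log2 change was -0.08. The tetraspanins Cd9 and Cd151, membrane partners of integrins, were higher by 1.40 and 1.17 on the log2 scale, and Itgb1bp1, a protein that binds the tail of beta1, by 1.22. Cd151 had log2 values of 12.58, 12.58 and 12.48 in hCG-6h samples 1 to 3, against 11.45, 11.43 and 11.24 in hCG-0h samples 1 to 3, with no overlap.

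Those that were lower included Parvb, a parvin of the adhesion complex that binds integrin-linked kinase, with log2 values of 8.66, 8.16 and 8.44 in hCG-6h samples 1 to 3, against 10.06, 10.32 and 10.30 in hCG-0h samples 1 to 3. The groups lay well apart (log2 change -1.81 ± 0.16, SE, limma adjusted p = 0.000409). Kank1, which links adhesions to the cell cortex, was lower by 1.82, and Itgb3bp, which is named for binding the beta3 tail and is also a centromere protein, had a log2 change of -2.50. Fits that omitted 1 sample each found 5 to 7 of the adaptors higher and 6 to 8 lower. The fits without hCG-6h sample 1, 2 or 3 gave 5, 6 and 6 higher, and those without hCG-0h sample 1 or 2 gave 6 each.

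**Figure D4:**
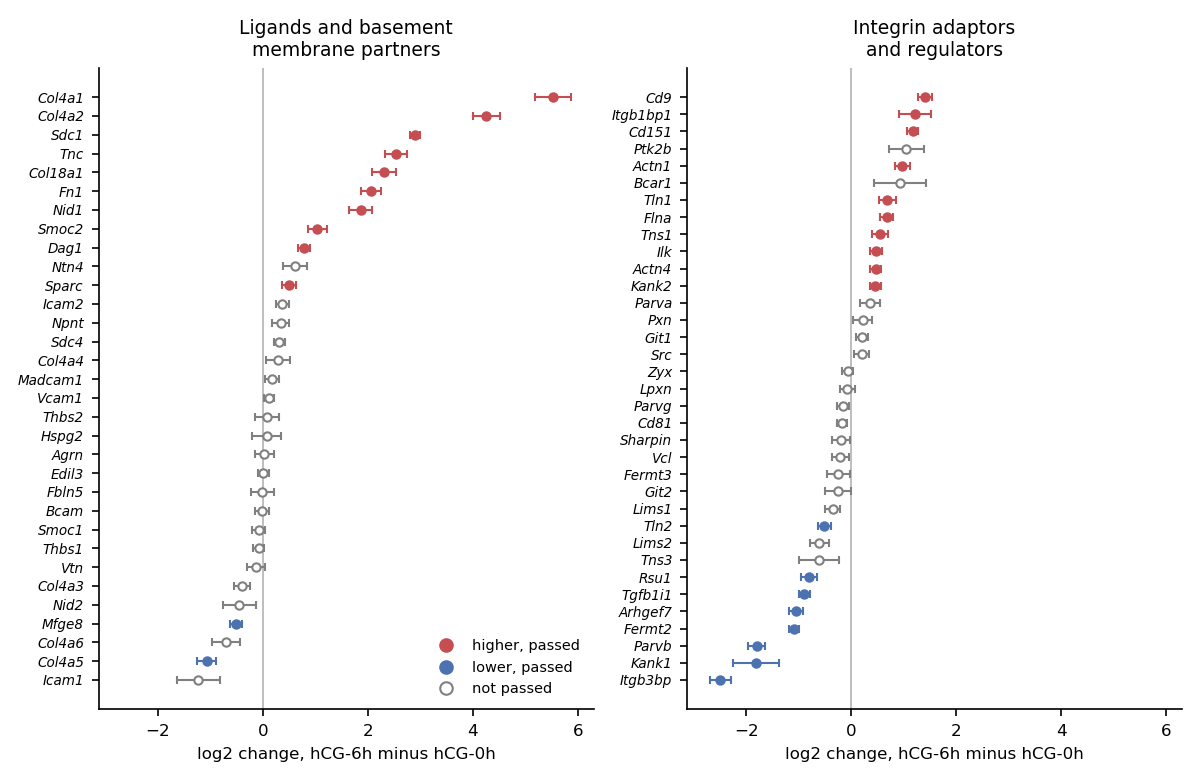
Log2 change (hCG-6h minus hCG-0h, bars for SE) of 32 ligands and basement membrane partners and of 35 adaptors and regulators, filled where the change passed at an adjusted p under 0.05. In the ligand list 10 are higher and 2 lower, with Col4a1 at 5.53; in the adaptor list 10 are higher and 8 lower, between -2.50 and 1.40.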

How the data were processed

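Gene expression of 6 samples, 3 hCG-6h and 3 hCG-0h, was measured on single-colour arrays, 1 per sample. The authors deposited a table of log2 values, 1 for each of 45101 probe sets and sample. They made it with RMA, per the submitters' processing notes, which also list Affymetrix Expression Console 1.1 and GCOS. RMA subtracts background, quantile-normalises arrays and summarises probes, and thereby compresses changes of dim genes. Scanner signals and detection calls were not used here, so the background correction could not be varied. A genome build was not given in the sources used here.

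Probe sets were named from the platform annotation. Of them 34958 had 1 symbol, 932 several and 9211 none listed. The probe set with the highest mean over the 6 samples stood for its gene, which left 18194 genes. All 34 subunits matched RefSeq by Entrez identifier. limma 3.58.1 in R 4.3.3 (lmFit, eBayes, group as the only term) was fitted to all genes, two-sided, with Benjamini-Hochberg adjustment and a threshold of 0.05. Folds are 2 to the power of the log2 change. Dim means among the lowest 1 in 3 of genes by mean level (log2 under 6.08). The fit was tested on simulated data. The number of arrays limits the precision.

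Values per sample are given for every subunit that passed and for 10 fixed ones, and the others by range, with some added where a probe set, a pairing or a partner was described. Up to 6 passing genes of each partner list, with Fn1 and Dag1, are named by rule. Ptk2, also fixed, and 8 further list genes were not analysed here. Vtn, Hspg2 and Agrn were picked from the lists after their values were seen. The subunits, lists and markers were chosen with earlier results of these data known. Alternatives varied the variance model (trend with robust estimation), the scaling (median centring, a further quantile step), the probe sets (their mean, or each alone) and the weights of arrays, dropped dim genes or 1 sample at a time, kept only sample 1 of hCG-6h, or added the sample number as a replicate block.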

Additional observations from a re-analysis of the deposited data

How the results depend on the processing

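The counts of subunits, partners and all genes kept within 1.5 times of the values above under a trend and robust variance, repeated quantile normalisation, median centring, array weights and without dim genes. With hCG-6h sample 1 alone against the 3 hCG-0h samples, a fit in which the lone sample is assumed to vary like the others, 4 subunits were higher and 0 lower, 809 of all genes were higher and 767 lower, 0 ligand-list genes were lower, and 2 adaptors were higher and 4 lower. This fit uses fewer samples. With the sample number as a replicate block 0 subunits were lower and 6 adaptors higher, and Itgax and Itgb4 did not pass (adjusted p = 0.11 and 0.0568). Samples with the same number did not deviate together over all genes (correlations across genes of 0.01, -0.02 and 0.03). These correlations cannot show whether such samples shared a batch that moved few genes. No pairing was used in the main fit. With the mean of probe sets 4 ligand-list genes were lower, and Itga3 and Lamc1 passed (log2 changes 1.14 and 0.39). Leaving out each sample in turn gave 6 to 7 subunits higher and 0 to 1 lower, 1475 to 1605 of all genes higher and 1402 to 1605 lower, 9 to 10 ligand-list genes higher and 1 to 2 lower, and 5 to 7 adaptors higher and 6 to 8 lower. Itga5, Itga2, Itgb3, Itgb5, Itgb1 and Lamb1 passed in all 6 of these fits. Probe set 1438119_at of Itgb1, near the floor of the arrays, had the opposite sign (-0.15, adjusted p = 0.519). The cause of these differences was not tested. With 3 arrays a group, even changes of several times the SE could miss the threshold, and the SE was 0.09 to 0.34 on the log2 scale for these subunits. Itgav, with a change of 0.39 and an SE of 0.11, and Lamb3, with 0.35 and 0.11, did not pass. A subunit that did not pass may therefore still have changed. Signals near the background limit the 12 subunits that were dim in 1 or both groups.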

Other observations

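Itga1 and Itga2, which both encode alpha chains of collagen receptors, are neighbours on chromosome 13, with 0 protein-coding genes between them in RefSeq (GRCm38.p6). The log2 change of Itga2 was 2.56 and that of Itga1 was -0.02. The log2 values of Itga1 were 7.32, 7.76 and 7.95 in hCG-6h samples 1 to 3 and 7.78, 7.56 and 7.75 in hCG-0h samples 1 to 3, with the groups overlapping. A second probe set of Itga1, 1439713_at, had a log2 change of 0.65 and did not pass (adjusted p = 0.15). Itgam and Itgax, leukocyte alpha chains that also lie side by side, had log2 changes of 0.06 and 0.78.

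Lama4, a laminin chain known from blood vessels, varied most within groups among the 34 subunits. Its log2 values were 7.62, 6.81 and 6.83 in hCG-6h samples 1 to 3 and 6.66, 7.72 and 6.77 in hCG-0h samples 1 to 3, so that 1 sample of each group stood high. In its second probe set, 1424808_at, other samples were highest within hCG-6h, with 6.06, 5.93 and 7.37 in hCG-6h samples 1 to 3 and 5.92, 6.59 and 6.42 in hCG-0h samples 1 to 3.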
